A study of Homo sapiens with 12 samples.

Results

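The common response to decitabine was measured in a pair of related lymphoma cell lines, with the cell line held as a block, so that each decitabine library was set against vehicle libraries of its own line. The comparison took 11 of the 12 RNA libraries of the series: 5 decitabine libraries (2 of parental cells and 3 of venetoclax-resistant cells) against 6 vehicle libraries (3 of each line). The parental line is OCI-LY1, an established line of diffuse large B-cell lymphoma of germinal-centre type. The resistant line, OCI-LY1R, was derived from it by growth in rising concentrations of venetoclax, an inhibitor of the anti-apoptotic protein BCL2, up to 1 µM. Cells of both lines received 1 µM decitabine or the vehicle DMSO for 3 days, and polyadenylated RNA was sequenced. Each line is 1 selected population, and the labels do not say whether the libraries of a group came from separate cultures, so p-values measure the spread between libraries, which may be technical. The third parental decitabine library was left out because its strand composition was inverted relative to the others, and the calls that remain with it included are given below.

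Decitabine is a deoxycytidine analogue that cells phosphorylate and build into replicating DNA, where it traps the DNA methyltransferases DNMT1, DNMT3A and DNMT3B on the strand. DNA copied afterwards carries fewer methyl groups, and genes that were silent under promoter methylation, such as germline genes, some imprinted genes and endogenous retroviruses, can be transcribed. In lymphoma cells, the responses most often followed are these reactivated genes, the interferon response to double-stranded RNA, and the balance of BCL2 family proteins on which venetoclax acts.

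Values were TPM, transcript abundances scaled to a common total in each library, which compare levels between genes per unit of length and keep no read depth, so the depth behind each value is unknown. In the 11 libraries, protein-coding features held 27.0% to 32.6% of the summed TPM and the annotation's antisense class 35.4% to 49.5%, whereas in the excluded library they held 90.1% and 0.309%. The same inversion was seen for the mitochondrial genome: its minus-strand features held 13.0% to 31.8% of the summed TPM in the 11 libraries and 0.440% in the excluded one. The strand setting used for counting is not given in the sources used here, so reads of a gene and of a feature lying opposite it cannot be told apart. The B-cell label was weakly borne out at this composition: 6 of 8 B-cell markers had a mean of at least 1 TPM, with a summed level of 23.3 to 125.7 TPM in vehicle libraries, 32.0 to 154.7 TPM in decitabine libraries and 3400 TPM in the excluded library. Fibroblast markers were near 0 in all 11 libraries, with 4 of 6 at 0 throughout. Epithelial markers, 3 of 6 at 0 throughout, summed to at most 2.98 TPM in vehicle libraries and to 0.530 to 23.4 TPM in decitabine libraries, and myeloid markers, 4 of 8 at 0 throughout, to at most 3.21 TPM and to 1.09 to 5.73 TPM. Their part in the results was not tested.

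Across both lines, decitabine raised far more features than it lowered. Of 8505 features that averaged 1 TPM or more, 674 rose and 207 fell at an adjusted p below 0.05 (limma on log2(TPM + 1) with Benjamini-Hochberg adjustment). These were 7.92% and 2.43% of the features tested, and 76.5% of the 881 calls were rises. Counts of calls in the gene lists below are to be read against these shares, and no list was tested as a set. The median change of a called rise was 1.23 on the log2(TPM + 1) scale, and that of a called fall was -0.76. The median over all features was itself 0.21, so a change is best read against that shift. The direction of this balance depended on scaling: after scaling each library by the median of ratios, 462 features rose and 370 fell (55.5% rises), and after quantile normalisation 369 rose and 369 fell. With the excluded library put back, only 16 rises and 9 falls passed out of 12706 features, all 25 of them among the 881, while 1065 features had an unadjusted p below 0.05. Of the 73 calls named below, 11 passed with that library included: KLRK1, RIOX1, CYHR1, LINC00163, ADO and H2BC12 among rises, and RASA4, TMEM217, KDM2B-DT, ARHGEF39 and PDK1 among falls. The other 62 did not, with limma adjusted p of 0.0524 to 0.98.

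Most calls had groups that did not overlap within a line. This is counted in the same values that gave the calls, so it is no separate support. Of the 881 calls, 422 were kept without each library in turn. Of the 674 rises, 559 had every decitabine library above every vehicle library within both lines, and 176 of the 207 falls had every one below. Over all features tested, 804 (9.45%) and 254 (2.99%) met the same conditions. Of 183 tested features listed at 0 in all 6 vehicle libraries, 50 rose, and of 104 listed at 0 in all 5 decitabine libraries, 4 fell. No fold change can be given for these calls. Such features passed the filter only through the other treatment, so each could be called in a single direction only. The log2 differences of low features understate their change, since 1 was added to every value.

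**Figure D1:**
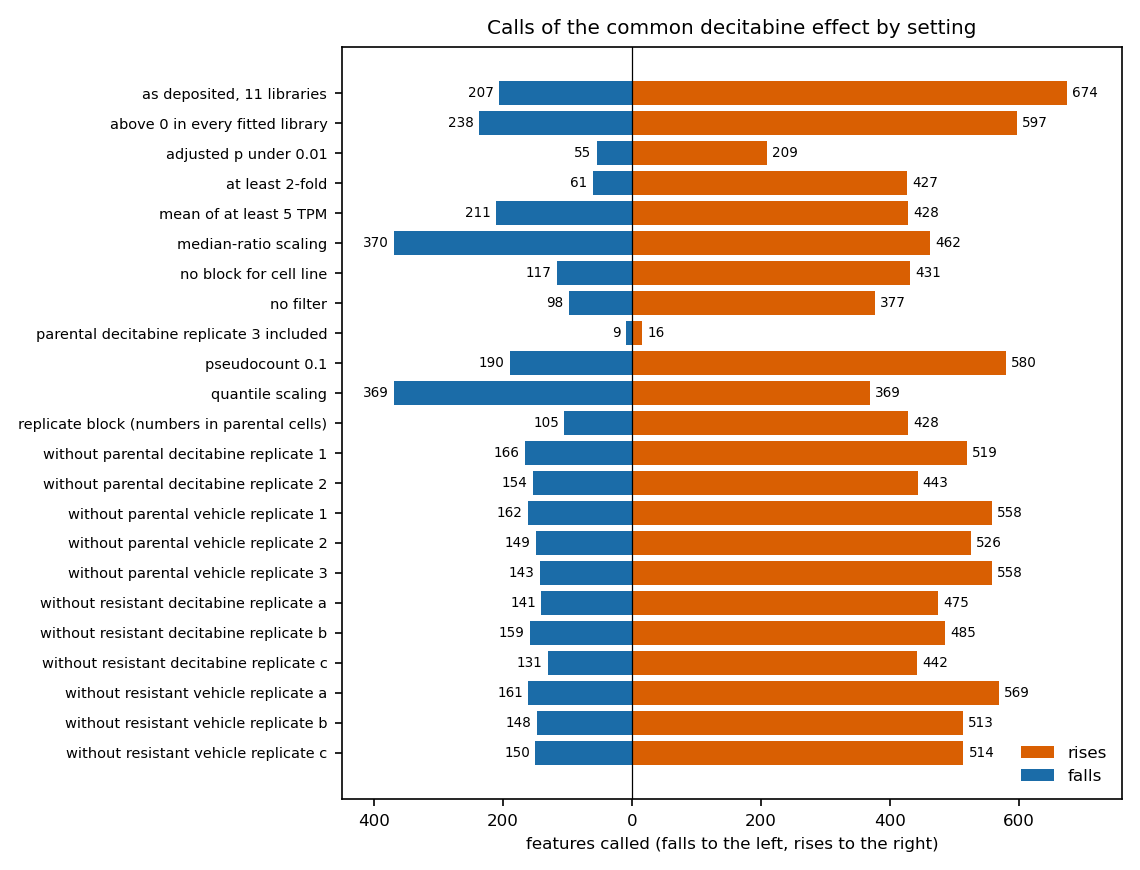
Number of features called as rises (right) and falls (left) for the 11-library comparison and for each other setting of scaling, filter, pseudocount, threshold, model or set of libraries. The balance goes from 674 rises and 207 falls to 369 of each after quantile normalisation, and to 16 and 9 with the excluded parental library included.

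More genes were detectable after decitabine in every library. Features at 1 TPM or more numbered 7277 to 7327 in parental and 7078 to 7348 in resistant vehicle libraries, against 8187 to 8235 and 8731 to 9038 after decitabine. The mean gain within lines was 1267 features, and the groups did not overlap in either line (exact permutation test within lines, two-sided, p = 0.005, the smallest that the 200 arrangements can give; adjusted over 7 library-wide values, 0.007). Protein-coding features gained 1.88 percentage points of the summed TPM (exact permutation p = 0.02, adjusted 0.0233), and the share of the antisense class changed by -8.84 points. Minus-strand mitochondrial features gained 9.90 points and plus-strand ones 0.93 points, and for these 3 values the exact permutation p was again 0.005 (adjusted 0.007). The lower antisense share was not a fall of most features of the class. By count, 151 of its 1782 tested features rose (8.47%) and 75 fell (4.21%), with a median log2 change of 0.15. The share held by the 10 highest features differed by 0.57 points, within the spread of the libraries (exact permutation p = 0.655). These shares moved with the same treatment as the gene results below, and their part in those results was not tested.

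Fitted alone, each line gave fewer calls. Parental cells had 219 rises and 66 falls (3.35% of the features), and resistant cells had 274 rises and 73 falls (4.08%). The lines share no library, and 51 rises were called in both, which is 23.3% of the parental and 18.6% of the resistant rises. For falls, 7 were called in both (10.6% and 9.59%), and no feature was called in opposite directions. A further 541 of the 881 common calls passed in neither line alone. Over all 8505 features, the log2 changes of the lines had a correlation of 0.25 and 61.6% had the same sign; genes are not independent replicates, and the libraries of a line share its vehicle group. The response differed between the lines for 31 features (0.364%) by the interaction term of the model in limma, and 6 of these were common calls.

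**Figure D2:**
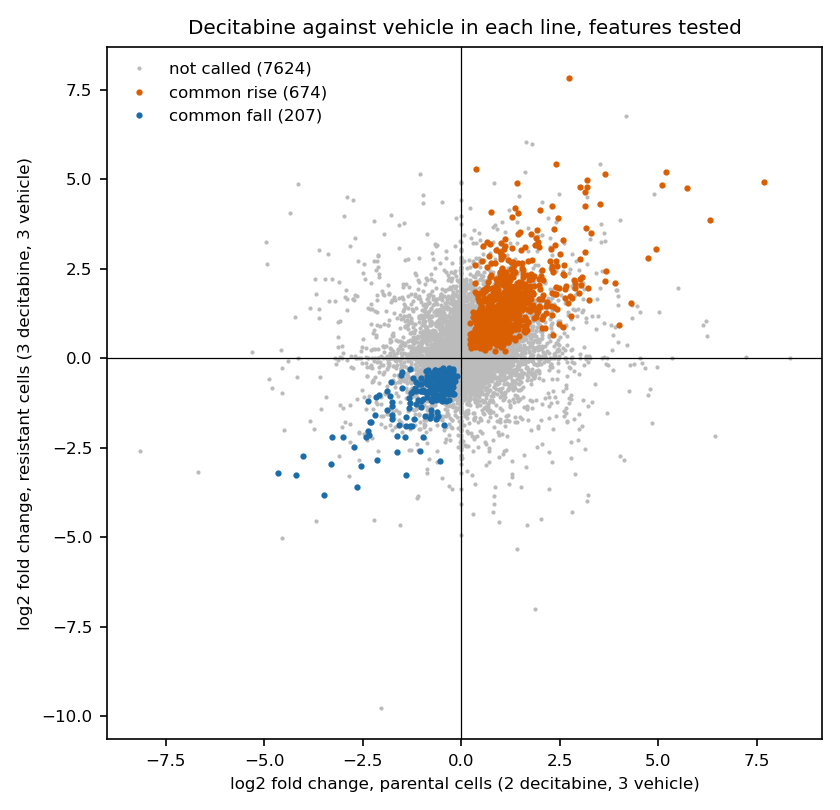
Log2 change of each feature after decitabine in parental cells (horizontal axis) and in resistant cells (vertical axis), on the log2(TPM + 1) scale, with the 674 common rises, the 207 common falls and the 7624 features not called in separate colours. All common rises lie in the upper right and all common falls in the lower left. The calls were made from these same values, so this is no separate support.

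The largest common rises were of features almost silent in vehicle, most of them non-coding. Features are named here by size or by p among calls whose decitabine and vehicle libraries do not overlap in either line, leaving out those known only by a clone name. KLRK1 (chr12, 10372353 to 10391874, GRCh38, minus strand) encodes NKG2D, an activating receptor of natural killer and T cells. It was listed at 0 in every vehicle library of both lines. After decitabine it was at 33.7 and 38.3 TPM in parental and 27.6, 37.4 and 44.2 TPM in resistant cells. This was the smallest adjusted p of the comparison (limma, 3.2e-07), and the call held under every alternative tried (7.06e-08 to 2.39e-05). Of its exons, 62.7% are shared with the readthrough transcript KLRC4-KLRK1, which was listed at 75.1 TPM in 1 resistant vehicle library, 14.7 TPM in 1 resistant decitabine library and 0 in the other 9. KLRK1 was the only natural killer receptor gene of 14 listed that passed the filter, and none of 8 genes for NKG2D ligands did. T and NK-cell markers, with 6 of 10 at 0 throughout, summed to at most 2.28 TPM in any of the 11 libraries.

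Antisense and intergenic transcripts made up most of the other large rises. MID1IP1-AS1 (chrX, 38801568 to 38803883) overlaps MID1IP1 on the opposite strand over 40.2% of its exonic length. It was listed at 0 in 5 vehicle libraries and at 1.44 TPM in the other one, which was resistant. Decitabine libraries had 58.4 and 47.2 TPM in parental and 43.6, 40.1 and 24.4 TPM in resistant cells (adjusted p = 4.32e-05), all far above vehicle. LINC00163 and PICSAR are long non-coding RNAs that lie next to each other on the minus strand of chromosome 21, 5.12 kb apart. LINC00163 (44989864 to 44994086) was at 0, 0 and 0.518 TPM in parental vehicle, 8.82 and 9.67 TPM in parental decitabine, 0.758, 0.895 and 0.840 TPM in resistant vehicle, and 30.6, 34.9 and 35.7 TPM in resistant decitabine libraries. Its log2 change was 3.76 (SE 0.25, adjusted p = 5.17e-05). PICSAR (44999208 to 45004727) was at 0 in all vehicle libraries but 1, which had 0.952 TPM, and at 12.2 and 10.9 TPM in parental and 45.3, 39.9 and 44.3 TPM in resistant decitabine libraries (adjusted p = 6.65e-05). In both lines the neighbours were low in every vehicle library and high in every fitted decitabine library. For them and for MID1IP1-AS1, groups apart within each line were a condition of the choice. In the excluded decitabine library PICSAR was at 0 and LINC00163 at 0.396 TPM. On chromosome 21 as a whole, 14 of 102 features (13.7%) rose, LINC00163 and PICSAR among them, against 7.92% of all features. There 0 fell, against 2.43%. Chromosome 18 had a like share of rises, 13 of 103 (12.6%). Falls were also few on chromosomes 5, 13 and 14 (0.615%, 0.813% and 0.943%). The difference between chromosomes was not tested.

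VIM-AS1, which starts beside the gene of the intermediate filament vimentin and lies opposite it over 32.2% of its length, was listed at 0 in all vehicle libraries. It reached 10.8 and 5.54 TPM in parental and 21.7, 14.5 and 42.2 TPM in resistant decitabine libraries (limma adjusted p = 0.000275). MIR4749, a microRNA hairpin feature, was at 0 in 5 vehicle libraries and 5.90 TPM in the other, against 18.3 and 36.5 TPM in parental and 17.0, 16.9 and 6.26 TPM in resistant decitabine libraries (adjusted p = 0.00556), so the resistant groups nearly met. Among coding genes, RIOX1, a ribosomal oxygenase, was at 0 in 5 vehicle libraries and 15.2 TPM in 1 parental one, and at 20.8 to 28.0 TPM in the 5 decitabine libraries (adjusted p = 0.00648). CYHR1 had the same pattern, with 23.5 TPM in 1 parental vehicle library, 0 in the other 5 and 15.6 to 39.2 TPM after decitabine (adjusted p = 0.0112). ADO, which encodes a dioxygenase of cysteamine, was listed at 0 in all 6 vehicle libraries and at 4.33, 4.27, 5.49, 6.51 and 4.92 TPM after decitabine (adjusted p = 6.65e-05). The groups of these 5 features did not overlap within a line because the features were chosen on that condition. The single vehicle values of RIOX1 and CYHR1 show that a listed 0 is not a steady level.

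**Figure D3:**
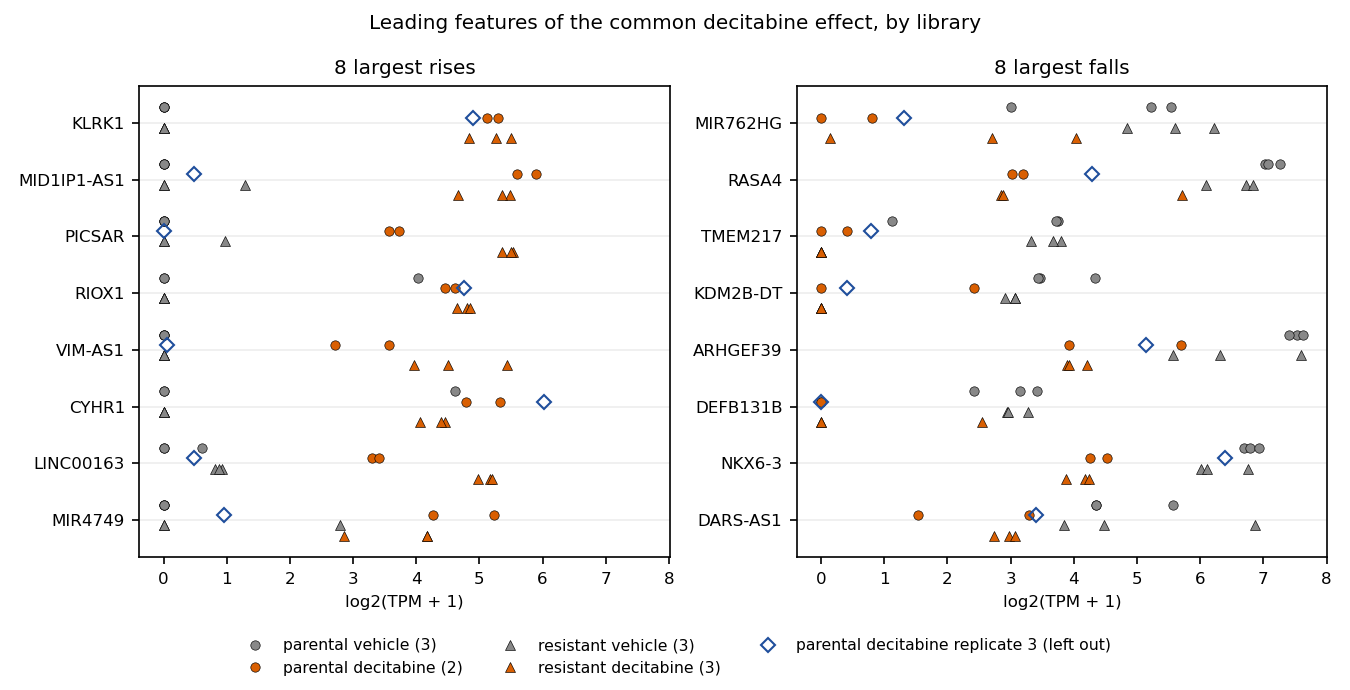
Level of the 8 features with the largest rises and the 8 with the largest falls in each library, as log2(TPM + 1), by line and treatment, with the excluded parental decitabine library as a hollow diamond. The fitted decitabine libraries stand above (rises) or below (falls) the vehicle libraries of their own line, which the choice of features required.

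The promoter sequences of 4 of the changed genes are shown, to let the reader see how many CpG sites, the substrate of the methyltransferases, lie at their starts. They are the named calls with 1 entry in the RefSeq table (GRCh38.p14) that starts where the annotation used here does; each runs 5′ to 3′ from 250 bases before to 50 bases after the start, on the gene's strand, with CG in capitals (the motif reads the same on both strands). The first 2 belong to large rises, SYCP3 is a germline gene that rose, and DEFB131B is among the largest falls.
MID1IP1-AS1 (chrX:38803834-38804133, minus strand): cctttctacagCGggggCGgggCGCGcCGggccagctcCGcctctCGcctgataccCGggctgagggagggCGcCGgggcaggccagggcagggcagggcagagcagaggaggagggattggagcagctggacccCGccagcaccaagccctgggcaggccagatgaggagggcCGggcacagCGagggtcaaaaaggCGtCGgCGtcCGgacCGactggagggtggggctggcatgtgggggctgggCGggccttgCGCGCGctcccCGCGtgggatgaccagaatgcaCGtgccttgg
LINC00163 (chr21:44994037-44994336, minus strand): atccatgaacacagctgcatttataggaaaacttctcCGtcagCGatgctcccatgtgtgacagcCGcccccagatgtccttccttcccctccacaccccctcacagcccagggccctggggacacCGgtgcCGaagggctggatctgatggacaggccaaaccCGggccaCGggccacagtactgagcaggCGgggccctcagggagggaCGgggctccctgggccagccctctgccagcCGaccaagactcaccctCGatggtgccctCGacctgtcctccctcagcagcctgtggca
SYCP3 (chr12:101739413-101739712, minus strand): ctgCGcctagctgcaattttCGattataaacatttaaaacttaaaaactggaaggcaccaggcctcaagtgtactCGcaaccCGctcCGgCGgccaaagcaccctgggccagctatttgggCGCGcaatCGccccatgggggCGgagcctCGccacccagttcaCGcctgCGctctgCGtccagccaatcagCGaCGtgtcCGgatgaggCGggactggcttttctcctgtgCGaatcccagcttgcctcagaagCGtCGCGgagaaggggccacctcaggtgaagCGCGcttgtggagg
DEFB131B (chr11:71878203-71878502, plus strand): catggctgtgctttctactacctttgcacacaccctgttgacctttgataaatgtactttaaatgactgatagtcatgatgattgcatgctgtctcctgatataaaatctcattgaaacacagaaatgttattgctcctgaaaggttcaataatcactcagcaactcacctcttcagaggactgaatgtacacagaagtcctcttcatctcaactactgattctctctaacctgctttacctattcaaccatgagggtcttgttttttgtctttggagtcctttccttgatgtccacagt
They hold 25, 12, 24 and 0 CG. Of 22114 promoters of this length in the table, 30.8% hold at least as many as MID1IP1-AS1, 50.8% as LINC00163 and 32.6% as SYCP3, and 95.5% hold at least 1. The counts describe these windows, and methylation was not measured in the libraries used here.

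The 8 largest falls were of coding genes and non-coding features, with MIR762HG first and RASA4 next. RASA4 (chr7, 102573807 to 102616757), a calcium-dependent GTPase-activating protein that switches Ras off, was at 152, 129 and 134 TPM in parental vehicle and 7.11 and 8.19 TPM in parental decitabine libraries. In resistant cells it was at 105, 113 and 67.5 TPM in vehicle and 6.18, 6.36 and 51.4 TPM after decitabine. Its log2 change was -3.30 (SE 0.51, limma adjusted p = 0.00422), and 1 resistant decitabine library stayed close to the vehicle libraries. RASA4B, a near-identical neighbour, fell as well (log2 change -1.47, SE 0.20, adjusted p = 0.00219), from 28.1, 28.7 and 31.6 to 7.55 and 8.35 TPM in parental and from 23.2, 16.3 and 18.99 to 6.01, 6.36 and 11.7 TPM in resistant cells. Reads can be split between such copies, so the share of each is uncertain. Of 6 tested Ras GTPase-activating genes these 2 fell and none rose (median -0.49, against 0.21 over all features). Over all features tested, 2.43% fell and 7.92% rose.

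NKX6-3, a homeobox transcription factor of the gut, was at 103, 109.7 and 121 TPM in parental and 107, 63.6 and 67.8 TPM in resistant vehicle libraries. After decitabine it was at 18.2 and 22.1 TPM and at 13.7, 17.1 and 17.96 TPM, a log2 change of -2.29 (SE 0.16, limma adjusted p = 6.23e-05). ZBTB45, a zinc-finger transcription factor, had 158, 142 and 149 TPM in parental vehicle against 70.1 and 64.2 TPM after decitabine, and 86.6, 95.8 and 88.9 TPM in resistant vehicle against 35.4, 38.7 and 36.5 TPM. Its change was -1.21 (SE 0.08, adjusted p = 6.23e-05). ARHGEF39, a guanine nucleotide exchange factor, was at 183, 169 and 197 TPM in parental and 193, 46.7 and 78.9 TPM in resistant vehicle libraries, and at 50.7, 14.2, 13.8, 14.1 and 17.5 TPM in the decitabine libraries (log2 change -2.59, SE 0.38, adjusted p = 0.00329). That every decitabine library of these genes lay below every vehicle library of its line follows from how they were chosen.

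Non-coding features also fell. MIR762HG, a microRNA host gene, went from 45.2, 7.04 and 36.1 to 0 and 0.747 TPM in parental and from 73.6, 27.5 and 47.4 to 15.3, 0.1003 and 5.55 TPM in resistant cells (log2 change -3.67, SE 0.72, limma adjusted p = 0.0122). KDM2B-DT, divergent to a histone demethylase gene, was at 6.52 to 19.2 TPM in vehicle libraries, at 0 and 4.33 TPM in parental and at 0 in all resistant decitabine libraries (adjusted p = 0.0025). TMEM217, which encodes a membrane protein, was at 1.16 to 12.9 TPM in vehicle libraries, at 0.332 and 0 TPM in parental and at 0 in all resistant decitabine libraries (adjusted p = 0.00352). The defensin gene DEFB131B, a member of a family of near-identical copies, was at 4.33 to 9.66 TPM in vehicle libraries and at 0 in 4 of 5 decitabine libraries, with 4.83 TPM in the other (adjusted p = 0.00962). DARS-AS1 had a wide spread in vehicle (13.4 to 116 TPM) and 1.88 to 8.78 TPM after decitabine (log2 change -2.23, SE 0.55, adjusted p = 0.0297), and its call was lost when any of 5 libraries was left out (to 0.0812 without parental decitabine 2).

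BCL2, the target of venetoclax, rose in the common comparison. It was at 53.8, 55.9 and 52.8 TPM in parental vehicle and 75.0 and 88.6 TPM in parental decitabine libraries, and at 37.6, 39.4 and 34.5 TPM in resistant vehicle and 75.8, 78.6 and 72.1 TPM in resistant decitabine libraries (chr18, 63123346 to 63320128). The log2 change was 0.82 (SE 0.11, limma adjusted p = 0.00219), with no overlap of the groups in either line. Fitted alone, resistant cells passed (adjusted p = 0.0111) and parental cells did not (0.58, adjusted p = 0.0789). In bulk RNA a higher level per cell and more cells of a kind cannot be told apart. It kept its call without each library in turn, and lost it with the excluded library (adjusted p = 0.401), where BCL2 was at 169.9 TPM. Of the 6 listed anti-apoptotic genes, 3 were tested, 1 rose and none fell (median 0.54), against 7.92% and 2.43% of all features. BCL2L1, which encodes BCL-XL, had a log2 change of 0.54 (adjusted p = 0.633), and MCL1 and BCL2A1 were below the filter.

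Among the genes that oppose BCL2, 1 of 8 tested rose and none fell (median 0.50), against 7.92% and 2.43% of all features. A count this small cannot be told from those shares. HRK, a BH3-only protein that binds BCL2 and BCL-XL, was at 1.68, 0.581 and 0 TPM in parental vehicle, 3.33 and 2.35 TPM in parental decitabine, 0.695, 0.533 and 0.649 TPM in resistant vehicle, and 5.01, 2.57 and 2.47 TPM in resistant decitabine libraries. Its change was 1.31 (SE 0.29, limma adjusted p = 0.0202) at levels of a few TPM, and it was lost without parental decitabine 1 (0.0527). After quantile normalisation it was 0.82 (adjusted p = 0.151), and the call was also lost with no filter (0.0578) and with a pseudocount of 0.1 (0.0609). The BH3-only genes BCL2L11 (0.98, adjusted p = 0.0858), BMF (0.69, adjusted p = 0.606) and PMAIP1 (-0.83, adjusted p = 0.281) did not pass, nor did the pore-forming BAX (1.22, adjusted p = 0.118) and BAK1 (-1.43, adjusted p = 0.39). BBC3 was below the filter.

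No gene of 4 tested in the death receptor list passed in the common comparison (median 0.33), and FAS shows how a response can be absent from it. FAS, a death receptor, was at 8.63, 7.89 and 11.1 TPM in parental vehicle and 1.81 and 0.881 TPM in parental decitabine libraries. In resistant cells it was at 8.20, 9.54 and 15.2 TPM in vehicle and 73.3, 95.03 and 63.1 TPM after decitabine. The common log2 change was 0.57 (adjusted p = 0.695), and the change in resistant cells exceeded that in parental cells by 4.87 (SE 0.43, adjusted p = 0.0019 for the interaction in limma). Of 7 tested p53 target genes, a list that also holds FAS and BAX, none was called (median 0.75).

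The enzymes that decitabine traps gave no common change that passed. DNMT1 had a log2 change of -0.38 (limma adjusted p = 0.604) at no more than 2.40 TPM in any of the 11 libraries, while DNMT3A and DNMT3B were below the filter. UHRF1, which brings DNMT1 to newly copied DNA, had a change of 0.85 (limma adjusted p = 0.0771). In the excluded library DNMT1 was at 220.6 TPM, UHRF1 at 70.8 TPM, DNMT3B at 5.67 TPM and DNMT3A at 2.50 TPM. A missing call at the low levels of the 11 libraries does not show that these genes were unchanged. Over the 4 tested genes of the methylation machinery the median was 0.06, below the 0.21 of all features and changing sign between scalings.

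Of 12 tested genes for the uptake and metabolism of deoxynucleosides, 2 rose and none fell, against 7.92% and 2.43% of all features. The list median was 0.04, which also changed sign between scalings. SAMHD1, which hydrolyses deoxynucleoside triphosphates and also decitabine triphosphate, was at 0, 0 and 0.273 TPM in parental vehicle and 7.77 and 0 TPM in parental decitabine libraries. In resistant cells it was at 0 in all vehicle libraries and at 15.0, 15.8 and 16.0 TPM after decitabine (limma adjusted p = 0.0174). The groups did not overlap in resistant cells and did in parental cells. DTYMK, the thymidylate kinase, was listed at 0 in all 6 vehicle libraries and at 2.76, 1.93, 4.77, 3.04 and 3.06 TPM in the 5 decitabine libraries (adjusted p = 0.000675). DCK, the kinase that activates decitabine, had a change of -0.85 (adjusted p = 0.24) at 3.16 TPM or less.

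Germline genes were mostly unmeasured: of 50 listed cancer-testis and germline genes, 2 passed the filter and both rose, against 7.92% of all features. STAG3, a cohesin subunit of meiosis, was at 57.4, 60.8 and 55.1 TPM in parental vehicle, 105 and 94.4 TPM in parental decitabine, 47.7, 56.1 and 40.8 TPM in resistant vehicle, and 101, 88.7 and 109 TPM in resistant decitabine libraries. Its log2 change was 0.92 (SE 0.12, limma adjusted p = 0.00142). SYCP3, a protein of the synaptonemal complex that pairs meiotic chromosomes, was at 8.32, 12.4 and 15.1 TPM in parental and 16.2, 7.94 and 13.7 TPM in resistant vehicle libraries. It reached 16.4 and 34.3 TPM and 91.5, 166 and 68.3 TPM after decitabine (log2 change 2.08, SE 0.43, adjusted p = 0.0155). Its treated libraries were above vehicle in both lines, narrowly so for 1 parental library.

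Of 34 listed imprinted genes 5 were tested and 1 rose, against 7.92% of all features (median 0.22, changing sign between scalings). NNAT, a paternally expressed proteolipid, went from 7.15, 4.85 and 4.45 to 9.44 and 9.78 TPM in parental and from 8.37, 8.03 and 8.73 to 16.4, 13.8 and 14.4 TPM in resistant cells (log2 change 0.75, SE 0.15, limma adjusted p = 0.0145; 0.0959 after quantile normalisation). None of 8 tested interferon-response genes (median -0.04) and none of 3 tested endogenous retroviral genes (median -0.38) passed in either direction. Most of both lists, 41 and 14 genes, were below the filter. Of features at least 50% opposite genes of these lists, 1 of 2 tested rose for the interferon list and 1 of 1 for the retroviral list. Over all 915 tested features at least 50% opposite 1 gene, 12.7% rose, and counts this small cannot be told from that share. Those that rose are PRAL, opposite XAF1, and the feature opposite ERVK3-1, both given below. ERVK3-1 itself had a log2 change of -0.55 and was not called.

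Rises were frequent among mitochondrially encoded features. Of 36 on the mitochondrial chromosome, 22 (61.1%) rose, against 7.92% of all features, and none fell, with a median log2 change of 1.03, and of its 21 transfer RNA features 14 rose. All 13 protein-coding genes were tested, and 7 rose (median 1.16): MT-CO2, MT-CYB, MT-ND1, MT-ND2, MT-ND3, MT-ND5 and MT-ND6. MT-CO2, a subunit of cytochrome c oxidase, was at 185, 198 and 187 TPM in parental vehicle, 469 and 384 TPM in parental decitabine, 317, 198 and 244 TPM in resistant vehicle, and 606, 454 and 626 TPM in resistant decitabine libraries. The log2 change was 1.16 (SE 0.13, limma adjusted p = 0.00106). MT-CYB, the cytochrome b of complex III, went from 197, 167 and 175 to 621 and 415 TPM and from 270.2, 142 and 228 to 477, 808 and 532 TPM (1.51, SE 0.20, adjusted p = 0.00189). The complex I subunits MT-ND1 (1.30, SE 0.21) and MT-ND2 (1.37, SE 0.22) rose as well, both at an adjusted p of 0.00512. MT-ND6, the only protein gene read from the minus strand, had a mean of 56445 TPM and a log2 change of 0.88 (SE 0.17, limma adjusted p = 0.0116). All minus-strand mitochondrial features together held 13.0% to 31.8% of the summed TPM in the 11 libraries and 0.440% in the excluded one. The level of MT-ND6 is therefore not to be compared with those of the plus-strand genes. In the excluded library MT-CO2 was at 57348 TPM, far above the other 11, and with that library included none of the 13 passed.

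Of the nuclear genes for complex III, which MT-CYB joins, 4 of 9 were tested, with members on both sides of 0 (median 1.29). Of these, 1 rose and none fell, against 7.92% and 2.43% of all features. CYC1, the cytochrome c1 of the complex, was at 5.19, 7.41 and 9.04 TPM in parental vehicle, 21.5 and 43.7 TPM in parental decitabine, 11.1, 9.15 and 4.03 TPM in resistant vehicle, and 31.8, 20.8 and 26.7 TPM in resistant decitabine libraries. It rose by 1.80 on the log2 scale (SE 0.29, limma adjusted p = 0.00466), with no overlap in either line. UQCR10, another subunit, was listed at 0 in all libraries except the parental decitabine ones, which had 342 and 304 TPM. The common comparison did not call it (adjusted p = 0.106), and the response differed between the lines (adjusted p = 1.31e-05). UQCRQ, a further subunit, went the other way in parental cells, from 275, 196 and 434 TPM to 0 in both decitabine libraries (adjusted p = 0.00564 in that line alone; 0.138 in the common comparison), while in resistant cells vehicle (192, 303 and 0 TPM) and decitabine libraries (0, 265 and 0 TPM) overlapped.

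Of 47 listed replication-dependent histone genes 6 were tested, 4 rose and none fell (median 1.21), against 7.92% and 2.43% of all features. The other two, H3C4 (-0.20, adjusted p = 0.83) and H4C8 (0.00, adjusted p = 1), were not called. H4C9, an H4 histone gene on chromosome 6, was at 18.1, 22.1 and 17.9 TPM in parental vehicle and 58.2 and 65.9 TPM in parental decitabine libraries, and at 50.05, 69.9 and 57.8 TPM in resistant vehicle and 260.1, 262 and 224 TPM in resistant decitabine libraries. Its change of 1.87 (SE 0.13, limma adjusted p = 6.65e-05) was among the 6 rises of smallest adjusted p. H2BC12 was listed at 0 in all vehicle libraries, at 43.6 and 0 TPM in parental and at 227, 253 and 195 TPM in resistant decitabine libraries (adjusted p = 0.0129), so its groups overlapped in parental cells. H4C5 (1.09, adjusted p = 0.0325) and H2AC18 (1.33, adjusted p = 0.0337; near-identical to H2AC19) each lost the call without any of 7 and 6 libraries (to 0.0801 and 0.0909, both without parental decitabine 2), and 2 of the 4 remained after quantile normalisation. These transcripts mostly lack a poly(A) tail, and the libraries were made from polyadenylated RNA.

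Of 20 listed genes of the MHC class I pathway 7 were tested (median 0.05, changing sign between scalings). Of these, 2 rose and none fell, against 7.92% and 2.43% of all features. CALR, a chaperone that loads class I molecules, was at 745, 714 and 719 TPM in parental and 627, 646 and 800.0 TPM in resistant vehicle libraries, and at 883 and 1123 TPM and 977, 1026 and 862 TPM after decitabine. The change was 0.46 (SE 0.09, limma adjusted p = 0.0137; 0.0664 after scaling by the median of ratios). B2M, the light chain of class I molecules, had 0.334 to 3.07 TPM in vehicle and 2.38 to 6.02 TPM in decitabine libraries (1.33, SE 0.33, adjusted p = 0.0309), and lost its call without any of 9 libraries (to 0.0798, without parental decitabine 1). None of 4 tested MHC class II genes passed (median 0.03, changing sign between scalings).

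Of 17 tested germinal-centre B-cell genes, 2 rose and 1 fell, against 7.92% and 2.43% of all features. Counts this small cannot be told from those shares. The list median was 0.14, negative after quantile normalisation. GCSAM, a signalling adaptor of germinal-centre B cells, went from 24.7, 26.4 and 22.9 to 19.7 and 15.7 TPM in parental and from 36.0, 32.7 and 32.9 to 15.7, 18.6 and 18.1 TPM in resistant cells (log2 change -0.72, SE 0.13, limma adjusted p = 0.0106). The transcription factors FOXO1 (1.17, SE 0.28, adjusted p = 0.0293) and EBF1 (0.81, SE 0.22, adjusted p = 0.0409) rose from levels near 1 TPM. FOXO1 was lost without any of 7 libraries and EBF1 without any of the 11 (to 0.0671 without 1 resistant decitabine library and 0.0976 without parental decitabine 1).

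Of 14 tested glycolysis and hypoxia genes 2 fell, against 2.43% of all features, and none rose. Their median was -0.16, and 6 of the 14 had values above 0, such as PFKP, a phosphofructokinase (1.29, adjusted p = 0.0649). GAPDH, a glycolytic dehydrogenase, went from 13528, 18292 and 20475 to 8179 and 7262 TPM in parental and from 9787, 10915 and 11057 to 6586, 7711 and 5912 TPM in resistant cells. Its log2 change of -0.88 (SE 0.14, limma adjusted p = 0.00431) missed the threshold after quantile normalisation (0.0648). PDK1, the kinase that turns off pyruvate dehydrogenase, was at 80.6, 84.3 and 55.0 TPM in parental and 82.0, 57.1 and 50.4 TPM in resistant vehicle libraries. After decitabine it was at 22.0 and 23.4 TPM and at 11.6, 13.7 and 13.4 TPM (-1.93, SE 0.18, adjusted p = 0.000333). Every treated library was lower, a condition of its choice among falls of smallest adjusted p. PDK1 was also called with the excluded library included.

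Of 4 tested stress-response genes 1 fell and none rose (median -0.91), against 2.43% and 7.92% of all features. DDIT4, a stress-induced inhibitor of mTORC1, was at 101, 109.6 and 135 TPM in parental and 98.2, 74.4 and 48.5 TPM in resistant vehicle libraries, and at 43.0 and 25.2 TPM and 27.5, 17.9 and 19.4 TPM after decitabine (log2 change -1.72, SE 0.22, limma adjusted p = 0.00142). DDIT4-AS1, which lies wholly opposite it, fell by a like amount at a higher level: 1573, 1659 and 1985 against 466 and 305 TPM in parental and 1129, 648 and 616 against 279, 258 and 236 TPM in resistant cells (-1.85, SE 0.20, adjusted p = 0.000654). No gene passed among 27 tested ribosomal protein genes (median -0.12), 12 cell cycle genes (median 0.06, changing sign between scalings), 19 DNA repair genes (median 0.19, negative after quantile normalisation) or the 5 tested antioxidant genes PRDX1, PRDX2, TXNRD2, SOD1 and SOD2 (median -0.15).

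**Figure D4:**
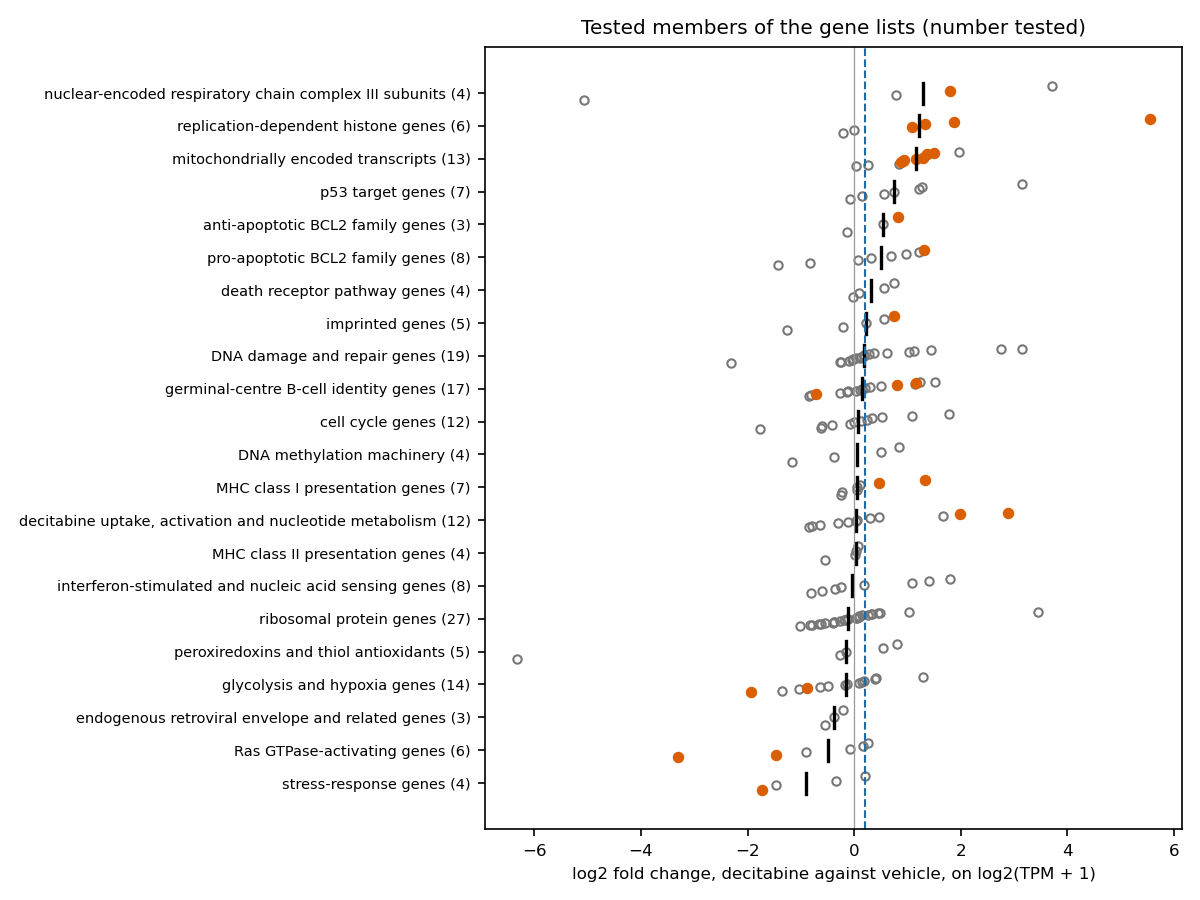
Log2 change of each tested member of the gene lists with at least 3 tested members, on the log2(TPM + 1) scale; filled points passed an adjusted p of 0.05, black bars are list medians and the dashed line is the median of all features, 0.21. The mitochondrial and histone lists lie mostly to the right of the line (medians 1.16 and 1.21), and the called glycolysis, stress and Ras GTPase-activating genes lie to its left.

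Features that lie opposite a known gene were part of the response, and those opposite GAPDH, CALR and DDIT4 stood at higher TPM than the gene itself in all 11 libraries. Of 528 features with at least 80% of their length opposite 1 gene, 69 rose and 20 fell (16.9% called, against 7.92% and 2.43% of all features for rises and falls). The feature opposite GAPDH held 184585, 190847 and 205205 TPM in parental vehicle and 112376 and 100568 TPM in parental decitabine libraries, and 134297, 146953 and 108488 TPM in resistant vehicle and 87871, 105641 and 81929 TPM in resistant decitabine libraries. Its log2 change was -0.66 (SE 0.11, limma adjusted p = 0.00529; 0.553 after quantile normalisation). In the excluded library it was at 1.17 TPM, against 8412 TPM for GAPDH. The feature opposite CALR rose by 0.46 (adjusted p = 0.00704), the same size as CALR, from 3726 to 4617 TPM in vehicle to 5109.7 to 6539.5 TPM in decitabine libraries.

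Some opposite features passed where the gene did not. The feature opposite MDM2, the ubiquitin ligase of p53, was at 260.4, 237 and 319 TPM in parental vehicle, 608 and 691 TPM in parental decitabine, 699.9, 677 and 853 TPM in resistant vehicle, and 1317, 1450.3 and 1429.8 TPM in resistant decitabine libraries (log2 change 1.07, SE 0.11, limma adjusted p = 0.000514). MDM2 itself had 1.27 (SE 0.46, adjusted p = 0.109). PRAL, which lies opposite the pro-apoptotic gene XAF1 over 77.1% of its length, went from 22.7, 20.3 and 20.03 to 264 and 302 TPM in parental and from 7.96, 7.23 and 7.14 to 34.3, 45.2 and 56.4 TPM in resistant cells (2.99, SE 0.24, adjusted p = 0.000149). XAF1, which is also in the interferon-response list, was below the filter. ABALON, 74.8% of it opposite BCL2L1, fell in both lines, from 229, 236 and 255 to 174 and 172 TPM and from 222, 239 and 199.5 to 160.3, 175 and 183 TPM (-0.40, SE 0.08, adjusted p = 0.0137). Of 23 pairs of a called opposite feature and a tested gene, 14 had changes of like sign and 9 of unlike sign, such as PA2G4 (2.02 for the gene, -0.64 for the feature) and GDE1 (-1.32 and 0.37). In 4 pairs the gene was called too. The difference between feature and gene was not tested.

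Other opposite features called were those of the angiogenic factor VEGFA (-1.65, limma adjusted p = 0.0458), the peroxidase PRDX2 (-0.47, adjusted p = 0.0121), the stress protein SESN1 (0.93, adjusted p = 0.00966) and the endogenous retroviral gene ERVK3-1 (0.50, adjusted p = 0.0383). DDN, a cytoskeletal protein of dendrites and podocytes, fell from 13.7 to 19.6 TPM in vehicle to 3.90 to 7.13 TPM after decitabine (-1.48, SE 0.17, adjusted p = 0.000827), and the feature opposite it fell by less (-0.43, adjusted p = 0.0343; 0.0822 without 1 resistant decitabine library). MIF-AS1, 46.5% of it opposite the cytokine gene MIF, went from 3598, 3626 and 4349 to 1969.7 and 2077 TPM in parental and from 2482, 2863 and 2428 to 1458, 1831 and 1594 TPM in resistant cells (-0.79, SE 0.09, adjusted p = 0.00114). Further calls of high mean level, chosen after their values were seen, lay opposite ACLY (-0.54), PA2G4 (-0.64), VPS51 (-0.61), AMPD2 (-0.93) and GPAT4 (-0.29) among falls, and opposite TUBB4A (0.57), OS9 (0.28), HYOU1 (0.62), CERS2 (0.43), CLCN7 (0.51), MLEC (0.40), GDE1 (0.37), BRI3BP (0.52) and FOXN3 (0.45) among rises. With the excluded library included, the fitted changes of these 9 rises and of the features opposite CALR, MDM2 and ERVK3-1 were negative and did not pass. Calls of the features opposite VEGFA, ERVK3-1, TUBB4A, OS9, MLEC and FOXN3 were lost without parental decitabine 2 (adjusted p = 0.119, 0.102, 0.0739, 0.0578, 0.0736 and 0.117).

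**Figure D5:**
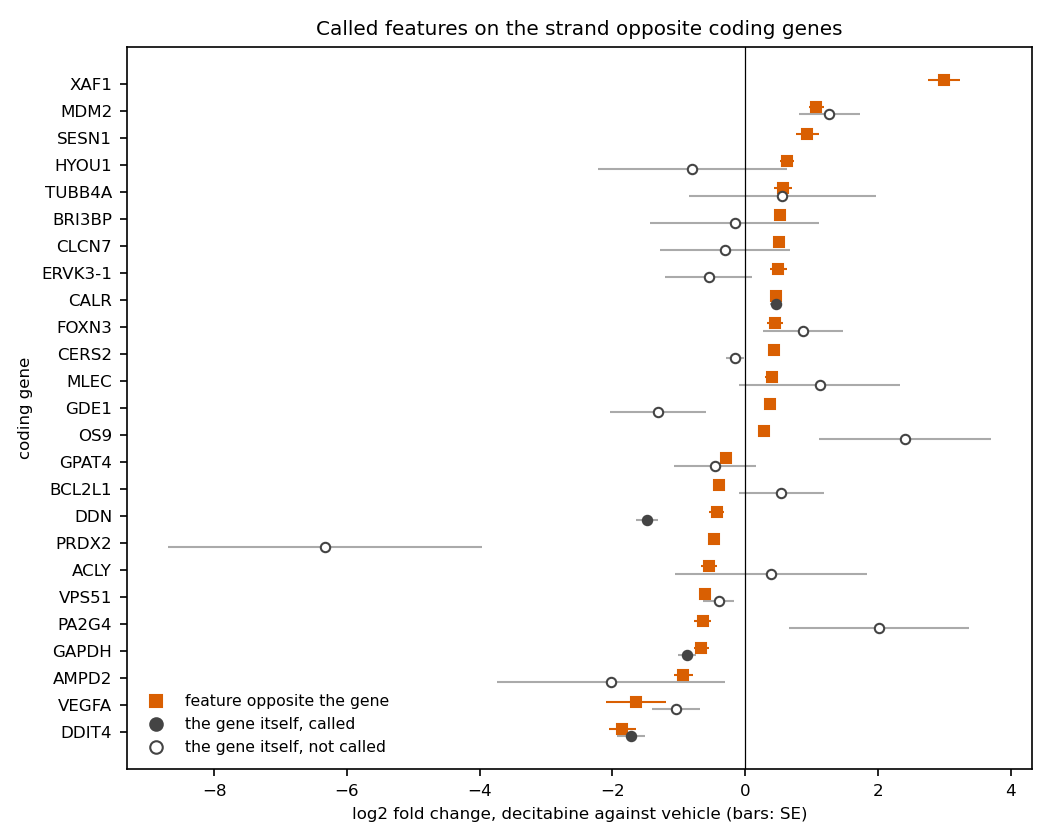
Log2 change with its standard error for called features that lie opposite 25 coding genes and for the genes themselves, on the log2(TPM + 1) scale; XAF1 and SESN1 were not tested. Of the 23 pairs with both values, 14 lie on the same side of 0, such as DDIT4-AS1 and DDIT4 (-1.85 and -1.72), and 9 on opposite sides, such as HYOU1 (-0.80 for the gene and 0.62 for the feature).

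Among the common calls, 3 named genes responded with unequal size in the lines, so that their common change is a mean of unlike values. ACAT1, a mitochondrial enzyme of ketone body and isoleucine metabolism, was at 59.5, 88.0 and 91.1 TPM in parental vehicle and 99.0 and 105 TPM in parental decitabine libraries. In resistant cells it was at 0, 3.61 and 0 TPM in vehicle and 61.6, 74.2 and 56.9 TPM after decitabine (common log2 change 3.10, SE 0.86, limma adjusted p = 0.047). PINK1, the kinase that marks damaged mitochondria, went from 24.3, 20.5 and 20.6 to 26.0 and 30.7 TPM in parental and from 7.33, 5.87 and 5.46 to 35.2, 26.2 and 27.9 TPM in resistant cells (1.32, SE 0.30, adjusted p = 0.023). NPIPB11, a member of a family of near-identical copies, went from 36.6, 32.8 and 31.3 to 27.0 and 22.0 TPM and from 42.5, 42.4 and 40.9 to 9.71, 10.8 and 11.8 TPM (-1.24, SE 0.25, adjusted p = 0.0141). For each of them the treated libraries lay on the same side of vehicle in both lines, with the larger difference in resistant cells. The calls of ACAT1 and PINK1 were lost without any of 8 and 5 libraries (to 0.104 and 0.0571, in both cases without a resistant decitabine library).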

How the data were processed

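RNA of 12 libraries was analysed from 2 deposited tables, 1 per cell line, of TPM values made by the authors. The submitters' processing notes name HISAT2, StringTie, DESeq2 and the build hg38; versions, order, annotation and strandedness are not given there, and that the values are TPM was read from the column totals. Each table lists 60656 features; 59490 names occurring once were joined and 1166 repeated names left out. Coordinates and classes came from GENCODE 29 (GRCh38), matched by name for 54865 features and by a newer symbol for 1567.

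Features averaging 1 TPM or more over the fitted libraries were tested on log2(TPM + 1) with limma 3.58.1 (R 4.3.3), with treatment and cell line as terms, and p-values were adjusted by Benjamini-Hochberg over all features, with a threshold of 0.05. The difference between lines was the interaction term. The columns of resistant cells carry no replicate number and were used as replicates without one. Tables were summarised with Python 3.11.15, pandas 2.3.3 and numpy 2.4.6, and the fit was tested on simulated data. Levels were not tested between the tables, since whether they were processed together is not known.

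The members and lists were chosen with earlier results of these data known. The text names, in each direction, the 8 calls of largest change and the 6 of smallest adjusted p, out of calls whose groups do not overlap in either line, core genes of apoptosis and DNA methylation, up to 4 called members of each list, and calls that differ between the lines; features with clone names are given only by the gene opposite. Alternatives were 2 other scalings, a pseudocount of 0.1, other filters and thresholds, no block for cell line, a replicate block, the excluded library included, and each library left out. A comparison of CpG content between called and other promoters was void, since 34.6% of the tested features have a promoter entry.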

Additional observations from a re-analysis of the deposited data

Results flagged for a closer look

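Among the named common calls, 3 differed in size between the lines by the interaction term in limma. The log2 change in resistant cells minus that in parental cells was 4.90 for ACAT1, -1.43 for NPIPB11 and 1.73 for PINK1. The excluded parental decitabine library, which is not part of the comparison, held values above all 6 vehicle libraries for 21 of the 45 named rises. Among those chosen for their size or p, and at 1 TPM or more in that library, these were KLRK1 at 28.6 TPM, RIOX1 at 26.0 TPM, CYHR1 at 64.0 TPM and ADO at 12.6 TPM. Of the other large rises, MID1IP1-AS1, PICSAR, VIM-AS1 and LINC00163 were at 0 to 0.404 TPM in it and MIR4749 was at 0.936 TPM. Protein-coding features held 90.1% of the summed TPM in that library, and DNMT1, which was not called, was at 220.6 TPM. A value above vehicle there is therefore no separate support for a call, and the share over all tested features was not counted.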

How the results depend on the processing

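The comparison gave 674 rises and 207 falls. Rises numbered 369 and falls 369 after quantile normalisation, 462 and 370 after scaling by the median of ratios, 377 and 98 with no filter, 428 and 211 with a mean of at least 5 TPM, 431 and 117 with no block for cell line, 209 and 55 at an adjusted p below 0.01, 427 and 61 at 2-fold or more, and 16 and 9 with the excluded library included. A pseudocount of 0.1 gave 580 and 190, and features above 0 in every library 597 and 238. Without 1 library at a time there were 442 to 569 rises and 131 to 166 falls. Of the 881 calls, 514 kept under both scalings, 422 without each library and 369 under both conditions. With a replicate block there were 428 rises and 105 falls. Deviations of parental vehicle and decitabine libraries from their group means correlated at -0.01 to 0.01. With 2 parental decitabine libraries these deviations mirror each other, so whether the numbers pair the samples cannot be told. The cause of these differences was not tested. Of 73 named calls, 57 kept without each library in turn. With the excluded library included, 12 features that rose had fitted changes below 0: those opposite CALR (-1.61), TUBB4A (-1.24), OS9 (-1.39), MDM2 (-0.47), HYOU1 (-0.92), CERS2 (-1.13), CLCN7 (-1.002), MLEC (-1.11), GDE1 (-1.12), BRI3BP (-0.94), FOXN3 (-0.90) and ERVK3-1 (-0.34). TPM keep no depth, so no counting error can be given: 30.4% of calls, against 40.2% of tested features, have a library listed at 0, and changes near 0 TPM cannot be told from failed detection.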

Other observations

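Histone cluster genes outside the canonical list rose as well. Of 70 features named as members of the histone clusters, 13 were tested, and 8 rose and none fell (median log2 change 1.27); 5 to 8 rose without 1 library at a time, 5 after quantile normalisation and 1 with the excluded library included. They included the H3 genes H3C14 (1.67, limma adjusted p = 0.00486) and H3C15 (1.61, adjusted p = 0.00556), which are near-identical copies, and the H2B gene H2BC15 (1.27, adjusted p = 0.00544). Nuclear pseudogenes of mitochondrial genes, copies that share sequence with mitochondrial RNA, had 8 rises and no fall among 10 tested (median 1.15), with 3 to 7 rises without 1 library, 5 after quantile normalisation and 0 with the excluded library included. MTATP6P1 was at 36.0, 42.9 and 42.9 TPM in parental vehicle, 103 and 99.6 TPM in parental decitabine, 53.6, 31.5 and 62.4 TPM in resistant vehicle, and 98.7, 109 and 148 TPM in resistant decitabine libraries (1.30, adjusted p = 0.00238). These groups were formed by name after their values were seen. Over all features tested, 7.92% rose and 2.43% fell.

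In the HOX clusters, which hold the homeobox genes of body patterning, 11 of 55 features were tested. Of these, 3 rose and 1 fell (median 0.64), against 7.92% and 2.43% of all features. All 4 are antisense RNAs: HOXA11-AS (1.63, limma adjusted p = 0.0126), HOXC-AS1 (1.54, adjusted p = 0.0157) and HOXA-AS3 (0.62, adjusted p = 0.038) rose, and HOXA-AS2 (-1.27, adjusted p = 0.0447) fell. The rises numbered 1 to 4 without 1 library at a time, 2 after scaling by the median of ratios, 0 after quantile normalisation and 0 with the excluded library included. Of 6 tested joining segments of the T-cell receptor beta locus, 2 rose and none fell, TRBJ2-1 (adjusted p = 0.0299) and TRBJ2-2 (adjusted p = 0.0448). Both were at 0 in 1 parental decitabine library, so their groups overlapped in parental cells, and 0 to 3 segments rose without 1 library at a time, 2 after scaling by the median of ratios, 1 after quantile normalisation and 0 with the excluded library included.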
